A study of Rattus norvegicus with 12 samples.

Results

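The genes described here make and inactivate prostaglandins. They are Pla2g4a, Ptgs1, Ptgs2, Ptges, Ptgis, Ptgds and Hpgd, and every probe set of the rat array whose platform annotation gave 1 of these symbols alone was taken, which was 10 of the 31042 probe sets tested and 7 of 14217 genes. F111 is a fibroblast line from a normal Fischer rat. A16 cells were F111 cells left to adhere to plastic for 16 h. Tumor cells were cells taken into culture from tumours that arose in nude mice about 3 months after NA16 cells had been placed under the skin, NA16 being the F111 cells that had been held in suspension for 16 h. Both groups thus derive from the same line, without an introduced allele, and NA16 cells themselves were not among the samples compared here. They were not alike in karyotype, however. The study reports a translocation in a minority of the adherent cells and in all tumour cells, with other chromosome changes also more frequent in the latter. The part of these chromosome changes in the differences between both groups was not tested. The labels give medium with the same serum for both, whereas the methods of the study describe more serum for the tumour explants. There were 3 arrays a group, labelled as biological replicates 1 and 2 and as technical replicate 2. The technical replicate has no biological number in the labels and was averaged with replicate 1, leaving n = 2 per group. The host was a mouse and the array is a rat array, and how many host cells remained in the Tumor cultures was not measured. In whole cultures fewer cells of a type and less RNA per cell cannot be told apart.

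Prostaglandins are local lipid signals made from arachidonic acid. Phospholipase A2 enzymes, chiefly the cytosolic enzyme encoded by Pla2g4a, free arachidonic acid from membrane phospholipids, and a cyclooxygenase turns it into the unstable intermediate prostaglandin H2. Ptgs1 encodes the cyclooxygenase that many tissues hold at a steady level, whereas Ptgs2 encodes the enzyme that cytokines, serum and growth factors induce, also in fibroblasts. Terminal synthases then set which product is formed, with Ptges making prostaglandin E2, Ptgis prostacyclin and Ptgds prostaglandin D2. Hpgd encodes the dehydrogenase that inactivates prostaglandins after a carrier has taken them up into cells.

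Ptgs1 was the member with the largest change. It rose 10.5-fold in Tumor cells on the brighter of its 2 probe sets and differed by 0.11 (log2, adjusted p 0.507) on the other. Ptgs2 differed by 1.02-fold, with 95% limits of -0.30 and 0.36 on the log2 scale. A second call among the members was a rise of Ptges on 1 of its 2 probe sets, and Ptgis was 1.74-fold lower, which is short of the 2-fold minimum. Counted by probe set, 2 of 10 were called higher and 0 lower, where 5.51% of all tested probe sets were called higher, 6.39% lower and 11.9% in either direction. A call needed an adjusted p under 0.05 in limma with Benjamini-Hochberg adjustment across the 31042 probe sets, and a change of at least 2-fold. Counted by gene, with the brightest probe set standing for each, 1 of 7 was called, against 10.9% of all genes. With any fold allowed, 5 of the 10 probe sets passed the adjusted p, where 31.8% of all probe sets did so.

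The sequences before the start sites of Ptgs1 and Ptgs2 are shown because these enzymes catalyse the same step and changed unequally, and that of Slco2a1 because this prostaglandin carrier had the largest rise among the genes listed around the members. Each is the 250 bases before the RefSeq start in the GRCr8 assembly, read 5′ to 3′ on the strand of the gene, at chr3:39981169-39981418 on the plus strand for Ptgs1, chr13:64713813-64714062 on the plus strand for Ptgs2 and chr8:112467489-112467738 on the plus strand for Slco2a1. Capitals mark matches on either strand. The motifs searched were the TATA box with the letters TATAAA, the E-box with the letters CACGTG, the CCAAT box by its name, the GC box with the letters GGGCGG, the cyclic AMP response element with the letters TGACGTCA, the AP-1 site with the letters TGANTCA and the C/EBP site with the letters TTNNGCAAT, where N is any base. The cyclic AMP response element is held by 1.70% of all windows and the AP-1 site by 6.36%, and neither is in the 3 printed here.
Ptgs1: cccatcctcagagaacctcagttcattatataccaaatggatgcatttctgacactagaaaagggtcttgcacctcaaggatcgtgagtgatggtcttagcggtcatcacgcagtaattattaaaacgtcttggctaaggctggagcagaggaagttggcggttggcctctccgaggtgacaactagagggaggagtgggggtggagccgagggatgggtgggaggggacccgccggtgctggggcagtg
Ptgs2: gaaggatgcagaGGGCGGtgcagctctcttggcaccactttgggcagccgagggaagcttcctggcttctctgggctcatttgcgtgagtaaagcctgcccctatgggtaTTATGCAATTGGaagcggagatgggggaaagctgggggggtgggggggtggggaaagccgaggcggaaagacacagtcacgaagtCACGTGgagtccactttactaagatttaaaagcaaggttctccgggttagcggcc
Slco2a1: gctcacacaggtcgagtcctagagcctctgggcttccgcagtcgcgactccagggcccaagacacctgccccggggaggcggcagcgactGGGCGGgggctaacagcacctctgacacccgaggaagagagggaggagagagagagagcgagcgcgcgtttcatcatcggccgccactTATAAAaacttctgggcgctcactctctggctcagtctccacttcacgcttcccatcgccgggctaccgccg

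The upstream window of Ptgs1 held 0 matches to these letters and that of Ptgs2 held 4. Those in Ptgs2 were an E-box at -55 to -50, counted back from the start site, a C/EBP site at -140 to -132 that overlaps a CCAAT box on the opposite strand at -133 to -129, and a GC box at -238 to -233. Over the 27457 windows of the same length in the table, 5.79% held the E-box letters, 2.02% the C/EBP letters, 34.3% the CCAAT letters and 32.4% the GC box letters. Slco2a1 had a TATA box at -72 to -67, a motif found in 13.1% of windows, and a GC box at -160 to -155. These matches are letters in a window, and no binding was measured. Promoter windows were found for 6 of the 7 members, and Ptgis had none in the table.

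The first step is that of Pla2g4a, the cytosolic phospholipase A2. It read 8.81, 8.89 and 8.77 log2 intensity on A16 replicate 1, its technical replicate and replicate 2, and 9.17, 9.22 and 9.21 on the Tumor arrays in the same order. All 3 Tumor arrays lay above all 3 A16 arrays, and a gap of that kind, in either direction, was seen for 52.6% of tested probe sets. The log2 difference of 0.40 ± 0.11 (SE, n = 2 per group) corresponds to 1.32-fold, and its adjusted p was 0.0348, so that Pla2g4a passed the p but not the fold minimum. Leaving out single replicates moved the adjusted p between 0.0279 and 0.172. Under PLIER, the other algorithm by which the authors summarised the same arrays, the log2 difference was again 0.40, with an adjusted p of 0.0601.

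Pla2g4a and Ptgs2 are neighbours on rat chromosome 13. In GRCr8, Pla2g4a spans 64427921 to 64572352 on the minus strand and Ptgs2 spans 64714063 to 64722320 on the plus strand, so that they point away from each other across 141710 bases, with 0 protein-coding genes in between. A lncRNA named Ptgs2os, which ends at 64713837, and a pseudogene lie in that stretch. Ptgs1, Ptges, Ptgis and Ptgds are all on chromosome 3, at separate places, and Hpgd is on chromosome 16. Ptgs1 itself spans 39981419 to 40002993 on chromosome 3.

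The cyclooxygenases differed in how they changed. Ptgs1 (probe set 1368259) read 7.19, 7.22 and 7.05 on the A16 arrays and 10.69, 10.63 and 10.37 on the Tumor arrays. The arrays of each group lay close together, and over 3 log2 units separated the lowest Tumor array from the highest A16 array. The log2 difference was 3.39 ± 0.14 (SE, n = 2 per group, limma adjusted p 2.6e-05), with 95% limits of 3.05 and 3.73, and under PLIER it was 3.54. Among the 14217 genes Ptgs1 ranked at 69 by size of rise. Leaving out each replicate in turn gave values from 3.25 to 3.54.

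Ptgs1 had another, dimmer probe set (probe set 1381806) that did not show this rise. It read 6.11, 6.01 and 5.94 on the A16 arrays and 6.10, 6.16 and 6.10 on the Tumor arrays, with overlapping ranges and a log2 difference of 0.11 ± 0.11 (adjusted p 0.507). Its 95% limits, -0.16 and 0.39, lie below those of the brighter probe set. The rise of Ptgs1 thus rests on 1 of 2 probe sets, the mean of both gives 1.75 (adjusted p 2.05e-05), and where in the transcript each lies was not analysed here.

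Ptgs2 read 10.65, 10.46 and 10.26 on the A16 arrays and 10.53, 10.42 and 10.39 on the Tumor arrays. The Tumor values lay within the range of the A16 values, and the log2 difference was 0.03 ± 0.14 (adjusted p 0.914). Its probe set was among the brighter ones of the array, at the percentile 91.1 of mean intensity, and Ptgs2 had no other probe set here. The sign of so small a difference was not fixed, and leaving out single replicates moved it between -0.12 and 0.17. Within each array, log2 Ptgs1 less log2 Ptgs2 was -3.46, -3.24 and -3.21 in A16 and 0.16, 0.21 and -0.01 in Tumor. The means were -3.28 ± 0.10 and 0.09 ± 0.14 (SD, n = 2), so the ratio of the signals of the 2 probe sets moved 10.3-fold toward Ptgs1. This shows unequal change of the 2 signals and not which transcript was the more abundant, and it has no test.

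**Figure D1:**
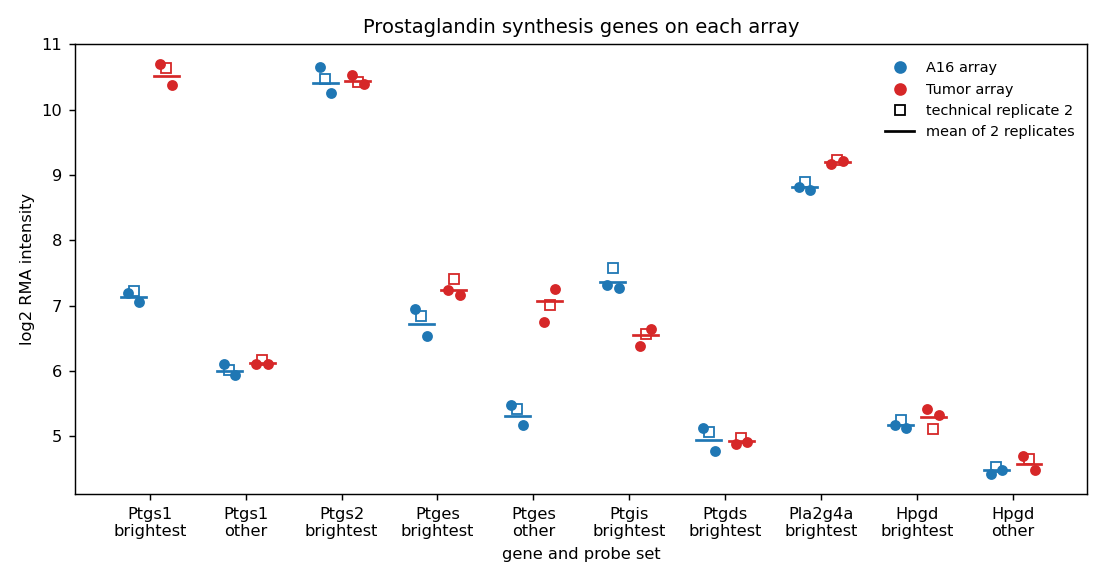
Log2 RMA intensity (vertical axis) of the 10 probe sets of the 7 prostaglandin synthesis genes (horizontal axis) on each A16 and Tumor array; points are arrays, open squares are technical replicate 2 and bars are means of 2 replicates. The Tumor arrays stand apart from the A16 arrays for the brightest probe set of Ptgs1 (10.37 to 10.69 against 7.05 to 7.22) and for the other probe set of Ptges, while those of Ptgs2 lie within the A16 range.

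Of the terminal synthases, Ptges and Ptgis differed in opposite directions and Ptgds showed no difference. Ptges encodes the inducible, membrane-bound prostaglandin E synthase, and its 2 probe sets gave different sizes of change. The brighter (probe set 1368015) read 6.95, 6.85 and 6.54 on A16 arrays and 7.25, 7.40 and 7.15 on Tumor arrays, a log2 difference of 0.52 ± 0.15 (adjusted p 0.0444) that was under 2-fold, and leaving out single replicates moved the adjusted p between 0.00262 and 0.228. The dimmer (probe set 1368014) read 5.48, 5.41 and 5.17 on A16 arrays and 6.75, 7.02 and 7.25 on Tumor arrays, and it rose 3.38-fold (1.76 ± 0.17, adjusted p 0.000561). On both probe sets every Tumor array lay above every A16 array. PLIER gave 0.32 (adjusted p 0.106) and 1.97 (adjusted p 0.000199), and the mean of both probe sets gave 1.14 (adjusted p 0.000404). The size of the Ptges difference thus depends on the probe set read, and its direction did not in RMA or PLIER.

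Ptgis, the prostacyclin synthase, was the only member of which, in the RMA values, every Tumor array lay below every A16 array. It read 7.32, 7.57 and 7.26 on A16 arrays and 6.38, 6.56 and 6.64 on Tumor arrays. The log2 difference was -0.80 ± 0.13 (adjusted p 0.00415), which is under 2-fold. PLIER gave -1.42 ± 0.14 (adjusted p 0.000718), or 2.67-fold lower, and would have called it. Ptgis ranked at 1174 by size of fall among 14217 genes.

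Ptgds, the lipocalin-type prostaglandin D synthase, lay near the lower end of the intensity range on all arrays, at 5.13, 5.07 and 4.77 in A16 and 4.88, 4.97 and 4.92 in Tumor. Its ranges overlapped, and the log2 difference was -0.01 ± 0.14 (adjusted p 0.952). Hpgd, the prostaglandin-inactivating dehydrogenase, also had dim probe sets. The brighter read 5.17, 5.25 and 5.13 in A16 and 5.42, 5.11 and 5.32 in Tumor (log2 difference 0.12 ± 0.11, adjusted p 0.462), and the dimmer differed by 0.10 ± 0.12. For the brighter Hpgd probe set PLIER gave the opposite sign, -1.15 ± 0.30 with an adjusted p of 0.0261, or 2.23-fold lower, which passed both thresholds. In the PLIER values its Tumor arrays (4.55, 4.65 and 4.27) all lay below its A16 arrays (5.32, 4.96 and 6.04). No direction can therefore be stated for Hpgd.

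**Figure D2:**
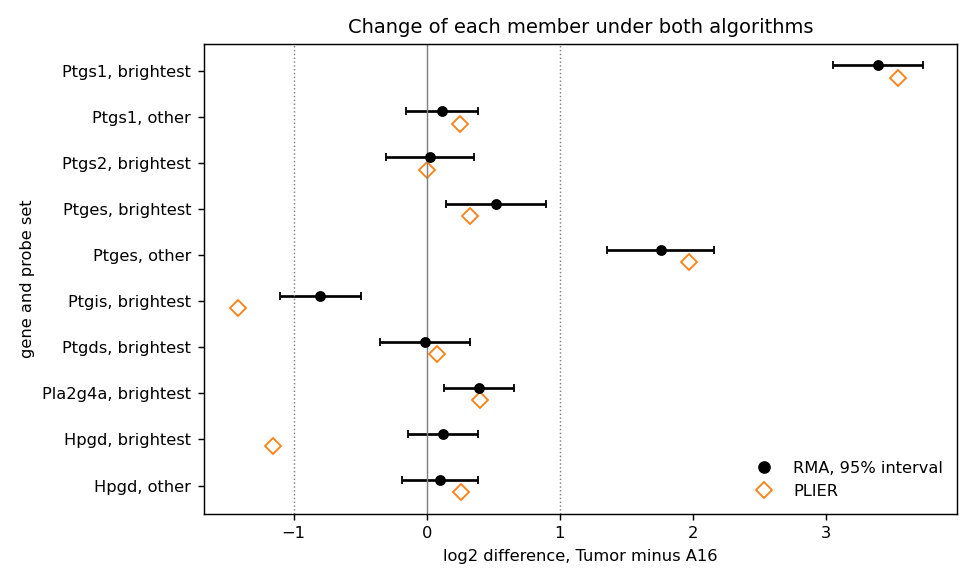
Log2 difference between Tumor and A16 (horizontal axis) for each member probe set (vertical axis); filled points are RMA with 95% intervals, open diamonds are PLIER, and dotted lines mark 2-fold in either direction. Both algorithms put the brightest probe set of Ptgs1 above 3, PLIER puts Ptgis below -1 where RMA gives -0.80, and they differ in sign for the brightest probe set of Hpgd.

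The arrays also differed in their control probe sets, and these values stand beside every difference given here. The poly-A spikes, bacterial RNAs added before labelling, averaged 7.51 to 7.99 log2 intensity on A16 arrays and 4.82 to 4.92 on Tumor arrays, while the hybridisation spikes, added after labelling, averaged 9.78 to 10.18 and 10.91 to 11.18. For beta-actin, the log2 intensity of the 3′ probe set less that of the 5′ probe set was 0.64 to 0.71 on A16 arrays and 2.25 to 2.37 on Tumor arrays, and for Gapdh it was -0.05 to 0.00 and 0.25 to 0.33. The same measure for hexokinase was 0.84 to 1.39 on A16 arrays and 1.83 to 2.30 on Tumor arrays. Labelling and group cannot be told apart. Among fibroblast markers Vim differed by -0.10 and Pdgfra by -0.06, while 5 of 12, such as Col1a1 (-3.46) and Thy1 (-1.95), were called lower and 0 higher. Because macrophages are rich in Ptgs1, their markers were read beside it. Of 14, 2 were called higher, Csf1r (3.14 ± 0.14) and Cd68 (1.07 ± 0.12), and 12 were not called. Csf1r was 8.80-fold higher in RMA and 18.4-fold higher in PLIER. In all 9 of the 14 had a positive RMA difference, and the median was 0.19. Fcer1g (0.33), Lyz2 (0.33), Mrc1 (0.28), Tyrobp (0.24) and Adgre1 (0.14) were uncalled, with every Tumor array above every A16 array. For Cd14 (-0.17), C1qa (-0.14) and C1qb (-0.09), also uncalled, every Tumor array lay below every A16 array. Such a gap, in either direction, was seen for 52.6% of tested probe sets. The defining marker Ptprc read 5.13 in A16 and 5.06 in Tumor, Itgam 5.98 and 5.85, Adgre1 3.97 and 4.11, and C1qa 5.76 and 5.61, and 11 of the 14 lay below the array median, with Cd14 among those above it (9.93 and 9.76). Under PLIER Adgre1 had 0.78 (adjusted p 0.00583) and Itgam 0.46 (adjusted p 0.0358), both under 2-fold. The summed intensity of the 14 ranged from 1521 to 1684 on A16 arrays and from 1914 to 2001 on Tumor arrays. Csf1r, which went from 5.46 to 8.59 log2 intensity, is part of this sum, so the sum does not show that the 14 rose together. The part of these markers in the rise of Ptgs1 was not tested. No mast cell or endothelial marker of 9 and 8 was called by limma in the RMA values; 1 mast cell gene, Hdc, and 2 endothelial genes, Vwf and Pecam1, passed the adjusted p. In the PLIER values Mcpt4 (1.02, adjusted p 0.00603) and Vwf (1.05, adjusted p 0.00327) were called higher and Tie1 (-1.63, adjusted p 0.00061) lower. With any fold, 6 of the 9 mast cell and 4 of the 8 endothelial genes passed the adjusted p in PLIER. Positive PLIER differences were seen in 7 and 6 of them. The share of all genes that passed under PLIER is not given here. By mean RMA intensity, 8 of the 9 and 7 of the 8 lay below the array median.

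Around the members, 113 genes of the wider pathway had a probe set of their own, in 7 lists. Of these 8 were called higher, 7 lower and 98 not called, and 44 passed the adjusted p with any fold, as did 34% of all genes. Their median log2 difference was 0.15, beside 0.03 for all 14217 genes, of which 5.45% were called higher and 5.44% lower. The shares for the pathway genes, 8, 7 and 44 of 113, are close to those for all genes.

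Carriage and inactivation held the largest rise of the lists. Slco2a1, which encodes the carrier that takes prostaglandins up into cells, rose 13.5-fold, from 5.99, 5.69 and 5.68 on A16 arrays to 9.71, 9.73 and 9.31 on Tumor arrays (log2 difference 3.75 ± 0.16, adjusted p 2.89e-05). Its other probe set was also called, at 1.35 ± 0.17, and PLIER gave 4.35 for the brighter. Ptgr3, a prostaglandin reductase, rose 3.01-fold (1.59 ± 0.11), and its other probe set rose too (1.18 ± 0.12). The reductases Ptgr1 and Ptgr2, which act on the keto products of Hpgd, passed the p but not the fold, with 0.81 ± 0.15 (adjusted p 0.00832) and 0.53 ± 0.13 (adjusted p 0.0228), and the other probe set of Ptgr2 gave -0.34 (adjusted p 0.12). In all 2 of 10 genes of this list were called higher and 0 lower, with a median of 0.54. Abcc4, an exporter of prostaglandins, had 0.55 ± 0.24 (adjusted p 0.141).

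Other prostanoid synthases had 2 of 10 called higher and 0 lower, with a median of 0.29. Akr1b1, an aldose reductase that can also make prostaglandin F2 alpha, rose 3.36-fold, from 12.32, 12.46 and 12.11 on A16 arrays to 13.96, 14.00 and 14.02 on Tumor arrays (1.75 ± 0.13, adjusted p 0.00023). Its other, dimmer probe set rose by 3.65 ± 0.13. The annotation lists several pseudogenes of Akr1b1, and whether they share its probes was not analysed here. Akr1c3, also listed as Akr1c18, whose rat enzyme is better known for acting on progesterone, rose 4.68-fold, from 4.42, 4.40 and 4.93 to 7.34, 6.69 and 6.78 (2.23 ± 0.19, adjusted p 0.000389), and by 3.62 under PLIER. Both genes had every Tumor array above every A16 array.

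The other 8 synthases were not called. Hpgds, the haematopoietic prostaglandin D synthase, was dim at 5.36 in A16 and 5.62 in Tumor (0.26 ± 0.11). PLIER gave it 1.04 ± 0.42 (adjusted p 0.0996), which is not a call. Tbxas1, the thromboxane synthase, differed by 0.06 ± 0.12, the prostaglandin E synthases Ptges2 and Ptges3 by 0.31 ± 0.11 and 0.09 ± 0.11, and Prxl2b, a prostaglandin F synthase, by 0.55 ± 0.17 (adjusted p 0.0507). Values were 0.35 ± 0.19 for the carbonyl reductase Cbr3, 0.16 ± 0.11 for Cbr1 and 0.03 ± 0.16 for Akr1b10. The 3 prostaglandin E synthases thus had RMA differences of 0.52, 0.31 and 0.09 on their brightest probe sets, for Ptges, Ptges2 and Ptges3.

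**Figure D3:**
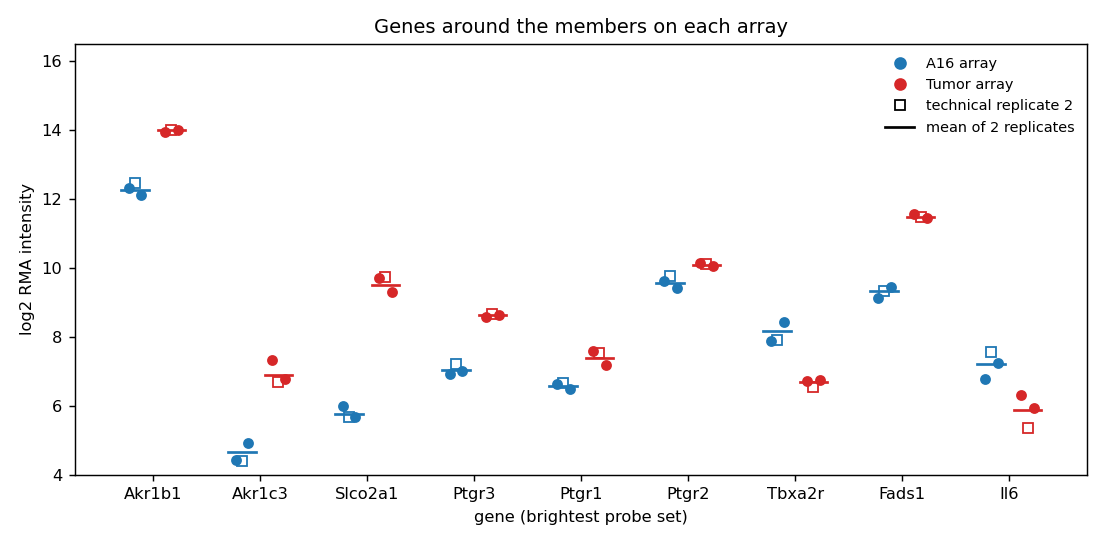
Intensity by RMA on the log2 scale (vertical axis) for 9 genes around the members (horizontal axis), each by its brightest probe set, on each A16 and Tumor array; points are arrays, open squares are technical replicate 2 and bars are means of 2 replicates. Slco2a1 moves from below 6 to above 9, Akr1b1, Akr1c3, Ptgr3 and Fads1 lie higher on every Tumor array, and Tbxa2r and Il6 lie lower.

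Of the prostanoid receptor list, 1 of 10 genes was called, and it was lower. Tbxa2r, the thromboxane receptor, was 2.78-fold lower, from 7.89, 7.92 and 8.42 on A16 arrays to 6.72, 6.55 and 6.74 on Tumor arrays (-1.48 ± 0.18, adjusted p 0.00153). The prostaglandin E2 receptors were dim on all arrays, with log2 differences of -0.59 ± 0.24 for Ptger1, -0.13 ± 0.15 for Ptger2, -0.01 ± 0.11 for Ptger3 and 0.04 ± 0.13 for Ptger4. Ptgfr, the receptor of prostaglandin F2 alpha, differed by 0.04 ± 0.11, and its inhibitor Ptgfrn by 0.46 ± 0.15 (adjusted p 0.0537). Ptgdr2, a prostaglandin D2 receptor, had 0.09 ± 0.12, and the nuclear receptors Pparg and Ppard had 0.07 ± 0.14 and 0.17 ± 0.14, the other Ppard probe set having -1.29 ± 0.61. The sign under PLIER was the opposite for Ptger1, Ptger2, Ptger4, Ptgdr2 and Pparg. The prostacyclin receptor Ptgir and the prostaglandin D2 receptor Ptgdr were not analysed here.

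Arachidonic acid supply had 1 of 16 genes higher and 1 lower, and 11 of 16 passed the adjusted p with any fold, where 34% of all genes did so. Fads1, the desaturase whose product is arachidonic acid, rose 4.43-fold, from 9.14, 9.32 and 9.45 to 11.57, 11.49 and 11.44 (2.15 ± 0.13, adjusted p 8.58e-05). Fads2, the desaturase that acts earlier in the same route, had -0.44 ± 0.11. Acsl4, which activates arachidonic acid, had 0.87 ± 0.12, and the acyltransferases Lpcat3 and Mboat7, which place it into phospholipids, had 0.83 ± 0.12 and 0.69 ± 0.12, all under 2-fold. Mboat1, another acyltransferase, was 2.76-fold lower (-1.47 ± 0.12). The elongase Elovl5 had 0.88 ± 0.14 on its brightest probe set, while its other probe set was called lower at -1.68 ± 0.22, so its direction is not settled. Lpcat3 had another probe set that was called higher, at 1.24 ± 0.12.

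Among 19 other phospholipase and arachidonate release genes 1 was called, Plaat3, a phospholipase A of adipose tissue, which was 2.76-fold lower (-1.47 ± 0.18). Abhd6, a further gene of the wider pathway, was called higher on a probe set other than its brightest (1.34 ± 0.13), and the brightest was not called. Pla2g12a, a secreted phospholipase A2, had 0.89 ± 0.11 and was the highest of the list without a call, while Pla2g2a and Pla2g5, secreted enzymes known from inflammation, were dim and had 0.16 ± 0.14 and 0.25 ± 0.13. Of 17 genes of the leukotriene branch 3 were called higher and 0 lower. They were the microsomal glutathione transferases Mgst3 (3.25-fold) and Mgst2 (2.77-fold) and the gamma-glutamyltransferase Ggt5 (2.72-fold, with 0.28 ± 0.12 on its other probe set and 0.86, no longer a call, as the mean of both). The enzymes that start leukotriene synthesis, Alox5 and its activating protein Alox5ap, were dim, with -0.05 ± 0.12 and 0.01 ± 0.12.

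Of 31 regulators of Ptgs2 transcription and mRNA, 4 were called lower and 0 higher, and the median was -0.03. The 4 were Nfkb2, a subunit of NF-kappa B (2.94-fold lower), the cytokine Il6 (2.5-fold lower), Tnfaip3, a feedback inhibitor of NF-kappa B (2.46-fold lower), and Tsc22d3, a glucocorticoid-induced gene (2.25-fold lower). Their log2 differences were -1.56 ± 0.17, -1.32 ± 0.11, -1.30 ± 0.15 and -1.17 ± 0.12, with adjusted p from 0.000366 to 0.00126. The brightest probe sets of Dusp1, Cebpd and Jun were not called. Other, dimmer ones of these genes were called lower, at -1.53 ± 0.18, -1.19 ± 0.17 and -1.08 ± 0.21. Jun had a further probe set, brighter than the one called but also not its brightest, that differed by 0.98 ± 0.11 (adjusted p 0.000934). A further one of Cebpd differed by 0.12 ± 0.13. The probe sets of Jun thus differed in sign. Without technical replicate 2 the difference of Il6 was -0.89, under 2-fold. The inducers Il1a, Il1b and Tnf were dim, with -0.06 ± 0.11, 0.06 ± 0.14 and -0.03 ± 0.11. Il1r1, the receptor of the former 2, had 0.95 ± 0.13 on its brightest probe set and -0.51 and -0.49 on the others. The factor Cebpb, which binds C/EBP sites such as that in the Ptgs2 window printed above, had 0.82 ± 0.16 (adjusted p 0.0104), under 2-fold.

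**Figure D4:**
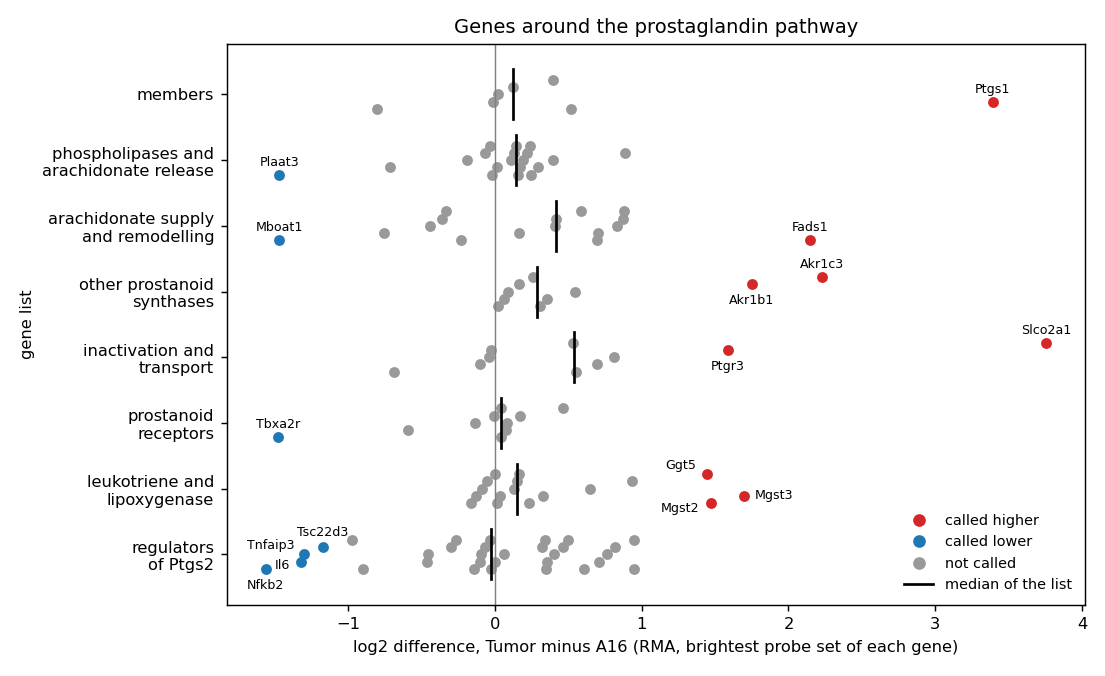
Log2 difference between Tumor and A16 (horizontal axis) of every measured gene of the members and the 7 lists around them (vertical axis), by the brightest probe set; red points were called higher, blue points lower, grey points were not called, and black bars are list medians. Slco2a1 (3.75) and Ptgs1 (3.39) lie farthest to the right, and the list medians lie between -0.03 and 0.54.

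The genes whose values over the 6 arrays lay closest to those of Ptgs1, once each was centred on its A16 mean, were Gadl1, Rbp2 and Ccdc88c, at root mean square distances of 0.08, 0.09 and 0.09 log2 units. Their log2 differences were 3.39, 3.48 and 3.41. For Ptgis, the member with the largest fall in value, the closest were Zswim1, Selenow and Wdr18, at 0.06, 0.06 and 0.07, with differences of -0.80, -0.87 and -0.70. With 6 arrays in 2 groups this measure mostly reads the size of the group difference.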

How the data were processed

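Expression was measured on Affymetrix whole-genome rat arrays hybridised with biotinylated cRNA. The authors deposited array intensity on a linear scale for 6 arrays, each summarised by RMA and by PLIER in Avadis after scanning in the Affymetrix software, so the 12 sample records are 6 arrays. The versions of RMA, PLIER and Avadis: not given in the sources used here. Here log2 was taken of both. All arrays bottomed out at 16 in PLIER, here called its offset, and an alternative took log2 after subtracting it and adding 1. The labels place technical replicate 2 with no biological number, and it was averaged on the log2 scale with replicate 1. The labels and the paper call the replicates biological, but neither says whether they were separate cultures or animals, so p-values measure the spread between these samples. With so few arrays, precision is low.

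Of 31099 probe sets, 57 array controls were left out. The platform annotation gave 20826 probe sets 1 symbol, updated by Entrez identifier to RefSeq (GRCr8), 436 several and 9780 none. Tumor was compared with A16 in limma 3.58.1 (R 4.3.3, lmFit and eBayes, two-sided). The fit was tested on simulated data. Of 100 simulated 2-fold changes 32 passed the adjusted p, and of 100 simulated 10-fold changes 94 did, with 2 false calls. Most 2-fold changes were thus missed there. Only these changes were placed among 31042 simulated probe sets, whereas 31.8% of probe sets passed the adjusted p in the data. The adjustment was therefore stricter in the simulation, and its shares do not give the power of the comparison itself. The genes, lists and rule for naming genes were chosen with earlier results of these data known. The text names every member, every prostanoid receptor and synthase measured, up to 4 called genes of each list, and the 3 genes nearest to the members with the largest rise and fall; other genes were named after their values were seen. Lists were described by counts and medians, without a list test. Marker lists for fibroblast, macrophage, mast cell, endothelial, epithelial, adipocyte and skeletal muscle had 5, 0, 0, 0, 0, 1 and 0 genes lower and 0, 2, 0, 0, 1, 0 and 0 higher in RMA, and 5, 0, 0, 1, 0, 1 and 0 lower and 0, 2, 1, 1, 2, 1 and 0 higher in PLIER. Alternatives were PLIER with and without its offset, other uses of technical replicate 2, leaving out each replicate, a replicate block, a filter at the 30th percentile of mean intensity, renewed quantile normalization, an intensity trend, any fold, averaging the probe sets of a gene, and the test named in the study.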

Additional observations from a re-analysis of the deposited data

How the results depend on the processing

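Of the members, Ptgs1 and the dimmer probe set of Ptges kept their direction under every alternative run, and lost their calls only under the methods' t-test after Benjamini-Hochberg adjustment, at 3.39 (adjusted p 0.0731) and 1.76 (adjusted p 0.116). That test left 0 of 10 member probe sets, 0 pathway genes higher and 0 lower, and 4 probe sets higher and 8 lower over the whole table, against 2, 8, 7, 1709 and 1985 in the limma fit. Without adjustment it gave 2 member probe sets, 8 and 7 pathway genes, and 1607 and 1493 probe sets. PLIER called 4 member probe sets in either direction, 13 pathway genes higher and 9 lower, with or without its offset. Over the whole table it called 2293 probe sets higher and 2403 lower, and without the offset 3113 higher and 2651 lower. With any fold allowed, 5 member probe sets, 30 pathway genes higher and 14 lower, and 5047 probe sets higher and 4832 lower passed. Ptgis gained a call at -1.42 under PLIER, at -1.87 without the offset and at -0.80 with any fold, the brighter Ptges probe set at 0.52 with any fold and at 1.14 as the mean of both probe sets, and Pla2g4a at 0.40 with any fold. The brighter Hpgd probe set was called lower at -1.15 under PLIER (adjusted p 0.0261) and at -2.34 without the offset (adjusted p 0.0497). Signs turned for Ptgs2, at -0.0093 with technical replicate 2 as a replicate of its own, for Ptgds at 0.075 under PLIER and 0.12 without the offset, and for Hpgd at the values just given. The cause was not tested.

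Among uncalled pathway genes, PLIER and PLIER without its offset turned the sign of Pparg (-0.0081 and -0.011), Ptgdr2 (-0.13 and -0.17), Ptger1 (0.039 and 0.062), Ptger2 (0.16 and 0.73) and Ptger4 (-0.34 and -1.03). Leaving out technical replicate 2 turned Akr1b10 (-0.0040), Ptger4 (-0.012) and Tbxas1 (-0.035), using it as a replicate of its own Ptger4 (-0.022), renewed quantile normalization Akr1b10 (-0.038), Ptger4 (-0.016) and Ptgfr (-0.018), and averaging probe sets Ppard (-0.56) and Ptger3 (0.10).

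Leaving out single replicates gave -0.12 to 0.17 for Ptgs2, -0.18 to 0.15 for Ptgds, -0.17 to 0.22 for Akr1b10, -0.092 to 0.24 for Pparg, -0.0017 to 0.17 for Ptgdr2, -0.28 to 0.020 for Ptger2, -0.034 to 0.019 for Ptger3, -0.084 to 0.17 for Ptger4, -0.0020 to 0.085 for Ptgfr and -0.021 to 0.14 for Tbxas1. The lone sample left in a group was assumed to vary like the other group. Member calls stayed at 2, and pathway genes ranged from 8 to 10 higher and 7 to 9 lower. With the replicate number as a block, 2 member probe sets, 8 pathway genes higher and 7 lower, and 1715 probe sets higher and 2035 lower were called. Deviations of same-numbered replicates from their group means correlated at 0.12 over probe sets, so the numbers were not taken as pairing. With 2 replicates per group the deviations of replicate 2 mirror those of replicate 1 and add nothing to this value. No detection measure was analysed here for the dim probe sets of Ptgds and Hpgd.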
